A study of Mus musculus with 16 samples.

Results

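Snai1 and Zeb1 encode zinc-finger repressors of the epithelial-mesenchymal transition (EMT), and their RNA levels are described here in every library of a TGFβ time course in mouse embryo fibroblasts (MEFs). The 2 genes were taken by symbol from 12100 genes in the deposited table, where each stands under 1 RefSeq mRNA accession (NM_011427 for Snai1 and NM_011546 for Zeb1). Poly(A)-enriched, strand-specific RNA was sequenced in 16 libraries from 4 lines that differ in Arkadia, the ubiquitin ligase encoded by Rnf111. WT cells were Ark+/+ and null cells were Ark-/-. The rvWT line was Ark-/-; rvCAG-ArkWT, null cells infected with a retrovirus that drives wild-type Arkadia and EGFP from the CAG promoter, and the sim line was Ark-/-; rvCAG-Arksim, with Arkadia mutated in its SUMO-interacting motif. Cells were unstimulated (0 h) or had received TGFβ at 2.5 ng/ml for 1, 4 or 16 h. Set A held WT and null at 0, 1, 4 and 16 h, and set B held rvWT and sim at 0, 1 and 4 h with null at 0 and 1 h. The design text names 2 batches of sequencing, and the sets are read here as those batches. Each line had 1 library per time and set, no library of an empty retrovirus was used here, and the labels do not say whether libraries of a line came from separate cultures. The p-values therefore reflect scatter among single libraries, part of which may be technical.

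SNAIL, the product of Snai1, binds E-box sequences and recruits histone deacetylases, the demethylase LSD1 and LIM-domain proteins to shut off epithelial genes such as that of E-cadherin. Snai1 RNA and SNAIL protein are both short-lived, and the gene is a known early target of TGFβ through the SMAD transcription factors. ZEB1 binds the same E-boxes through a pair of zinc-finger clusters, works with the corepressor CtBP, and is held down in epithelial cells by the miR-200 family. Arkadia raises TGFβ signalling by directing the SMAD inhibitors SnoN, Ski and SMAD7 to degradation. Fibroblasts, as mesenchymal cells, are known to express such factors.

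The Snai1 promoter is shown because Snai1 was the member with the large TGFβ response. In RefSeq annotation of build GRCm38.p6 the 300 bases at chr2:167537945-167538244, on the plus strand, run from 250 bases before to 50 bases after the Snai1 start, with the E-box CACCTG in capitals.
Snai1 promoter: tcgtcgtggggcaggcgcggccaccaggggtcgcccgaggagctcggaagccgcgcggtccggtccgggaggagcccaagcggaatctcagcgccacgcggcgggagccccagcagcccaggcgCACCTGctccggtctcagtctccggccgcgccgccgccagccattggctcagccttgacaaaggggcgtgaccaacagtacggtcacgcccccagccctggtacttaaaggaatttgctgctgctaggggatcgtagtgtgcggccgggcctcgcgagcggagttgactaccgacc
The E-box starts at position -126 from the start site, and 20.2% of 32851 mouse promoters of this length hold CACCTG on either strand. GGCGC, the GC-rich SMAD motif, matched 4 times on the 2 strands, and 36.9% of promoters hold it; the match at position -130 shares its last base with the E-box. CAGAC, the SMAD box, had 0 matches on both strands, and 49.6% of promoters hold it. The GC content of this window is 70%, above that of 90.4% of the promoters (median 52.7%). These matches describe letters, not bound sites.

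Rnf111 followed the labels, at 14.8 ± 0.306 FPKM in WT (SD, n = 4), 0.163 ± 0.0331 in null of set A (SD, n = 4) and 0.481 ± 0.0646 in null of set B (SD, n = 2). It stood at 112.8 ± 11.9 FPKM in rvWT and 59.7 ± 3.30 in sim (SD, n = 3 each), so both reconstituted lines carried more Rnf111 RNA than WT and unequal amounts of it. Total FPKM per library ran from 397019 to 481970, and the read depth is unknown. Fibroblast markers (11 of 14 in the table) were expressed in every library, with a summed level of 2713 to 3143 FPKM in WT, 6223 to 6428 in null of set A, 6636 to 6812 in null of set B, 8451 to 9241 in rvWT and 7865 to 8145 in sim. The 5 epithelial markers in the table (of 15) summed to 281.5 to 529.4 FPKM in WT and to 14.6 to 63.6 FPKM in the other lines. By limma 1 of the 5 was higher and 3 lower in WT minus null, beside 37.4% and 30.1% of all genes. Their median log2 difference was -0.55 against 0.07 for all genes, so most of them did not share the higher sum. Cdh1, Epcam and Ocln, which define epithelia, were not among the 5 epithelial markers in the table and were not analysed here. Fibroblast sums were lower in WT and higher in rvWT and sim than in null of the same set, as was Zeb1. Snai1 was higher in rvWT and sim but did not pass in WT minus null. The epithelial sums of rvWT and sim overlapped those of null, though null of set B had no 4 h library. By limma 1 of the 4 epithelial markers tested was higher and 3 lower in rvWT minus null and in sim minus null. The shares of all genes were 16% and 22.6% for rvWT, and 13.9% and 20.8% for sim. The median log2 differences of the markers were -0.73 and -0.64, against -0.03 and -0.02 for all genes. The part of these markers in the line differences of Snai1 and Zeb1 was not tested. In bulk RNA, fewer cells of a type and less RNA per cell cannot be told apart.

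Snai1 rose steeply in every line within 1 h of TGFβ. In WT its level was 9.17 FPKM at 0 h, 90.5 at 1 h, 40.2 at 4 h and 25.5 at 16 h. In null of set A it was 11.2, 81.4, 33.0 and 33.5 FPKM at the same times, and in null of set B it was 12.6 FPKM at 0 h and 106.1 at 1 h. In rvWT it was 24.8, 180.6 and 93.4 FPKM at 0, 1 and 4 h, and in sim 21.3, 179.9 and 82.3 FPKM. Every treated library lay above every untreated library, and the 5 libraries at 1 h included the highest library of each line. Each line therefore shared 1 shape, a peak at the first time sampled followed by a lower level that stayed above the start.

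**Figure D1:**
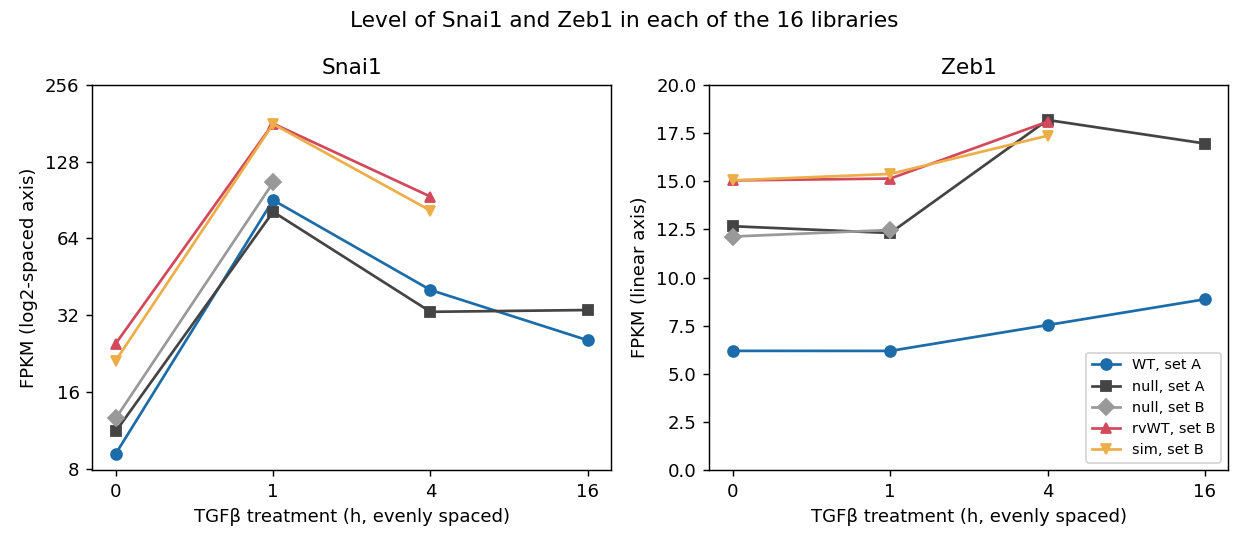
Levels of Snai1 and Zeb1 in FPKM (vertical axes) against hours of TGFβ for each series, 1 point per library and 1 line per series. Snai1 is highest at 1 h in all 5 series, at 81.4 to 180.6 FPKM, though null of set B has no later library. Zeb1 stays between 6.19 and 18.2 FPKM in all libraries.

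The rise of Snai1 at 1 h was a log2 difference of 2.95 ± 0.09 (SE) on the log2(FPKM + 1) scale over the 5 series (limma adjusted p = 5.71e-08). It had the smallest p of 11045 genes tested, of which 5.96% passed in either direction, and it was at rank 7 by size of rise, between Scarna2 (3.25), a small Cajal body RNA, and Mir1943 (2.91), a microRNA gene. The rise was 2.96 in set A (limma adjusted p = 0.0175) and 2.94 in set B (limma adjusted p = 9.63e-05). At 4 h Snai1 was 1.82 ± 0.10 above 0 h (limma adjusted p = 4.89e-06), where 39% of all genes passed. At 16 h it was 1.46 ± 0.12 above (limma adjusted p = 5.25e-05), a value that rests on 1 WT and 1 null library, where 19.4% of genes passed.

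The fall of Snai1 after its peak was a change in itself. The log2 difference of 4 h minus 1 h was -1.13 ± 0.10 (limma adjusted p = 8.54e-05), in a comparison where 22.2% of genes passed. In set A alone, with 4 libraries in the contrast, the rise at 4 h was 1.75 and the fall from 1 h to 4 h was -1.21, and neither passed (limma adjusted p = 0.0576 and 0.126). In set B they were 1.90 and -1.04 (limma adjusted p = 0.000468 and 0.00146). The level at 4 h was 44.4% of that at 1 h in WT, 40.5% in null of set A, 51.7% in rvWT and 45.7% in sim. From 4 h to 16 h the level went to 63.5% in WT and to 101.6% in null. Pooled over these 2 lines the log2 difference was -0.36 ± 0.13 (limma adjusted p = 0.196; 1.87% of genes passed). It was -0.14 without the WT library at 16 h and -0.58 without the null library at 16 h, and with 1 library per line and time the difference between WT and null in this step was not tested.

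The lines with and without Arkadia all induced Snai1. The ratio of the FPKM at 1 h to that at 0 h was 9.88 in WT, 7.26 in null of set A, 8.40 in null of set B, 7.28 in rvWT and 8.46 in sim. The WT and null ratios of set A are therefore farther apart than the 2 null ratios, while in set B the null ratio lies between those of rvWT and sim. At 4 h the ratio to 0 h was 4.39 in WT, 2.94 in null, 3.77 in rvWT and 3.87 in sim. At 16 h it was 2.78 in WT and 2.99 in null.

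**Figure D2:**
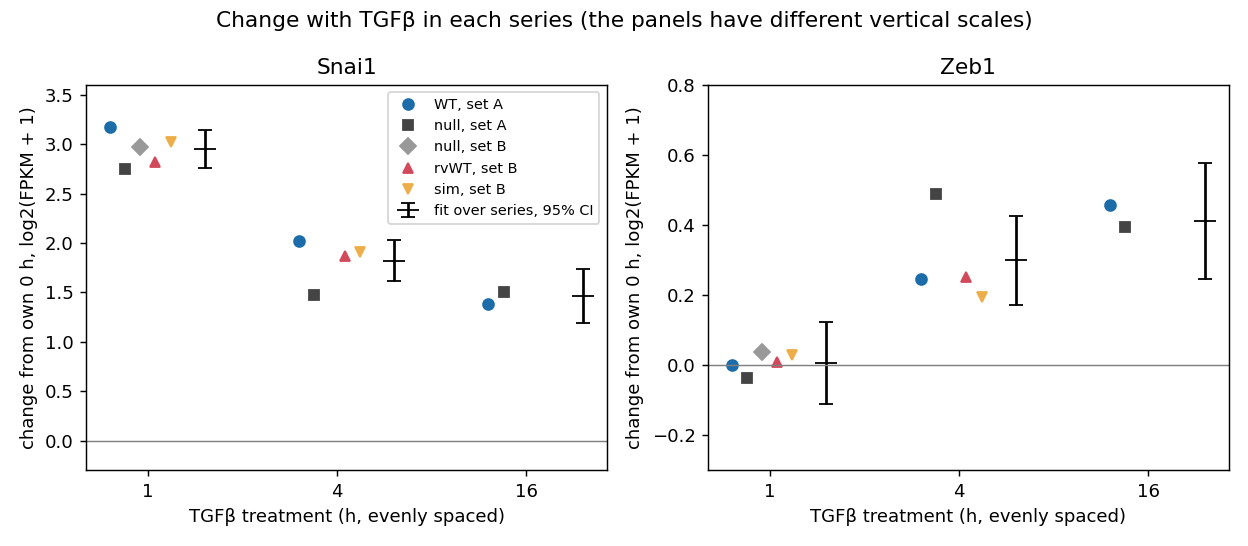
Response of Snai1 and Zeb1 in each series, as the difference in log2(FPKM + 1) from the 0 h library of the same series (vertical axis) at each later time. The Snai1 responses of the 5 series lie together at 1 h, and no Zeb1 response at 1 h departs visibly from 0.

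The treated minus untreated response of Snai1 was 0.13 ± 0.18 log2 units larger with wild-type Arkadia (WT and rvWT) than in null, with a 95% interval from -0.28 to 0.55 (limma adjusted p = 0.997). It was 0.28 in set A and -0.12 in set B, so the direction was not shared by the sets. With 1 library left out it ran from 0.0087 (without null of set A at 0 h) to 0.23 (without WT or null at 16 h). The sim response minus the null response was 0.17 ± 0.23 (95% interval -0.34 to 0.69, limma adjusted p = 0.99978), and it ran from 0.051 (without null of set A at 0 h) to 0.25 (without either null library of set B). Both comparisons use the same null libraries. The intervals allow a difference in either direction of the size given, so the responses are not shown to be alike. Across all genes 0.00905% passed in the first comparison and 0.0181% in the second. These were 1 gene and 2 genes, named here after their values were seen: Mir704 (-5.96, limma adjusted p = 0.000381) in the first, Crlf2 (1.81) and Zfand2b (3.42) in the second (limma adjusted p = 0.0124 for both).

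Snai1 levels of WT and null crossed over the time course. WT was at 0.817 times the null level at 0 h, 1.11 times at 1 h, 1.22 times at 4 h and 0.761 times at 16 h. WT was thus the lower line at 0 and 16 h and the higher at 1 and 4 h. The log2 difference over the 4 times was -0.05 ± 0.13, with a 95% interval from -0.37 to 0.26 (limma adjusted p = 0.719), in a comparison where 67.5% of all genes passed.

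Both reconstituted lines carried more Snai1 RNA than null. At 0 h rvWT stood at 1.96 times and sim at 1.68 times the null level of set B, and at 1 h both stood at 1.70 times. The log2 difference was 0.85 ± 0.06 for rvWT minus null (limma adjusted p = 0.000575) and 0.72 ± 0.06 for sim minus null (limma adjusted p = 0.00117), where 38.6% and 34.7% of genes passed. These comparisons share the null libraries of set B, and without time as a term neither passed (limma adjusted p = 0.624 and 0.698). The difference between the 2 null libraries of sets A and B was 0.16 log2 units at 0 h and 0.38 at 1 h, the latter larger than in 75.1% of genes. For rvWT minus sim the difference was 0.13 ± 0.05 (95% interval -0.00 to 0.27, limma adjusted p = 0.307; 0.493% of genes passed). Infection and Arkadia cannot be told apart, since every infected line carried an Arkadia transgene.

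Zeb1 changed little and late with TGFβ. In WT its level was 6.20 FPKM at 0 h, 6.19 at 1 h, 7.54 at 4 h and 8.87 at 16 h. In null of set A it was 12.7, 12.3, 18.2 and 17.0 FPKM, and in null of set B 12.1 FPKM at 0 h and 12.5 at 1 h. In rvWT it was 15.0, 15.1 and 18.1 FPKM at 0, 1 and 4 h, and in sim 15.0, 15.4 and 17.4 FPKM. The libraries at 4 h lay above both earlier libraries of their own line in all 4 lines.

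The log2 difference of Zeb1 at 1 h was 0.01 ± 0.05 (95% interval -0.11 to 0.12, limma adjusted p = 0.966), with -0.02 in set A and 0.03 in set B. At 4 h it was 0.30 ± 0.06 (limma adjusted p = 0.00352) and at 16 h 0.41 ± 0.08 (limma adjusted p = 0.00457). The ratio to 0 h at 4 h was 1.22 in WT, 1.44 in null, 1.20 in rvWT and 1.15 in sim, and at 16 h it was 1.43 in WT and 1.34 in null. Within sets the difference at 4 h was 0.23 in set B (limma adjusted p = 0.0205), while in set A it was 0.37 and did not pass (limma adjusted p = 0.187). The 16 h value exists in set A only, where it was 0.43 with limma adjusted p = 0.0971. From 1 h to 4 h the rise was 0.29 ± 0.06 (limma adjusted p = 0.00716), with 0.20 in set B (limma adjusted p = 0.0362) and 0.39 in set A (limma adjusted p = 0.287). From 4 h to 16 h it was 0.11 ± 0.08 (limma adjusted p = 0.507), with 0.047 without WT and 0.18 without null at 16 h, and 0.21 without null at 4 h.

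The response of Zeb1, again as 1 term for all treated times, differed by -0.05 ± 0.11 log2 units between wild-type Arkadia and null. The 95% interval was -0.31 to 0.21 (limma adjusted p = 0.997), and the difference was -0.05 in set A and -0.01 in set B. For sim minus null it was -0.08 ± 0.14 (95% interval -0.40 to 0.24, limma adjusted p = 0.99978).

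Zeb1 differed more between WT and null than over time. Null stood at 2.04, 1.99, 2.41 and 1.91 times the WT level at 0, 1, 4 and 16 h, and the highest WT library lay below the lowest null library. The log2 difference of WT minus null was -0.96 ± 0.07 (limma adjusted p = 0.000238), where 30.1% of genes were lower and 37.4% higher. WT and null are separate lines, so line origin and Arkadia cannot be told apart here. In the lines that had received Arkadia, Zeb1 was not lower than in null. At 0 h rvWT and sim each stood at 1.24 times the null level, and at 1 h at 1.21 and 1.23 times. The log2 difference was 0.29 ± 0.05 for rvWT minus null (limma adjusted p = 0.00867) and 0.27 ± 0.05 for sim minus null (limma adjusted p = 0.0111). Neither passed without the null library of set B at 0 h (limma adjusted p = 0.083 and 0.103), without that at 1 h (0.073 and 0.0855), or without time as a term (0.0583 and 0.0733). The first also failed to pass without rvWT at 0 h (limma adjusted p = 0.0524) and the second without sim at 0 h (limma adjusted p = 0.0617). The rvWT minus sim difference was 0.01 ± 0.04 (95% interval -0.09 to 0.12, limma adjusted p = 0.912). The 2 null libraries of sets A and B differed by -0.06 and 0.02 log2 units at 0 and 1 h.

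Among the 19 EMT factors of a 29-gene list that were in the table, Snai1 was between rank 5 and rank 9 by FPKM at 0 h and at rank 1 in all 5 libraries at 1 h. Zeb1 was between rank 6 and rank 11 in all libraries. Among all 12100 genes Snai1 rose from the 46.4 to 75.1 percentile of level at 0 h to the 92.7 to 97.0 percentile at 1 h.

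Snai2 and Zeb2 are the paralogues that bind the same E-boxes. The FPKM ratio of Snai1 to Snai2 was between 1.00 and 1.49 at 0 h. At 1 h it was 31.2 in WT, 11.7 in null of set A, 14.6 in null of set B, 14.2 in rvWT and 15.6 in sim. Snai2 itself fell by 0.63 on the log2 scale at 1 h (limma adjusted p = 0.00500) and by 0.72 at 4 h (limma adjusted p = 0.00127), and at 16 h its difference was -0.19 (limma adjusted p = 0.393). By series its change at 1 h ran from -1.14 in WT, to 2.90 FPKM, to -0.20 in null of set B, to 7.27 FPKM. Within set A the ratio of Zeb1 to Zeb2 did not overlap between WT, at 1.08 to 1.36, and null, at 2.04 to 3.27. In set B it was 2.97 to 3.97. The sets themselves differed, since the null ratio at 0 and 1 h was 2.14 and 2.22 in set A and 3.12 and 3.67 in set B. Zeb2 differed by -0.13 at 1 h (limma adjusted p = 0.204) and by -0.08 at 4 h (limma adjusted p = 0.260; 0.037 with quantile scaling), and rose by 0.29 at 16 h (limma adjusted p = 0.0218). Its WT minus null difference was -0.06 (limma adjusted p = 0.480).

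**Figure D3:**
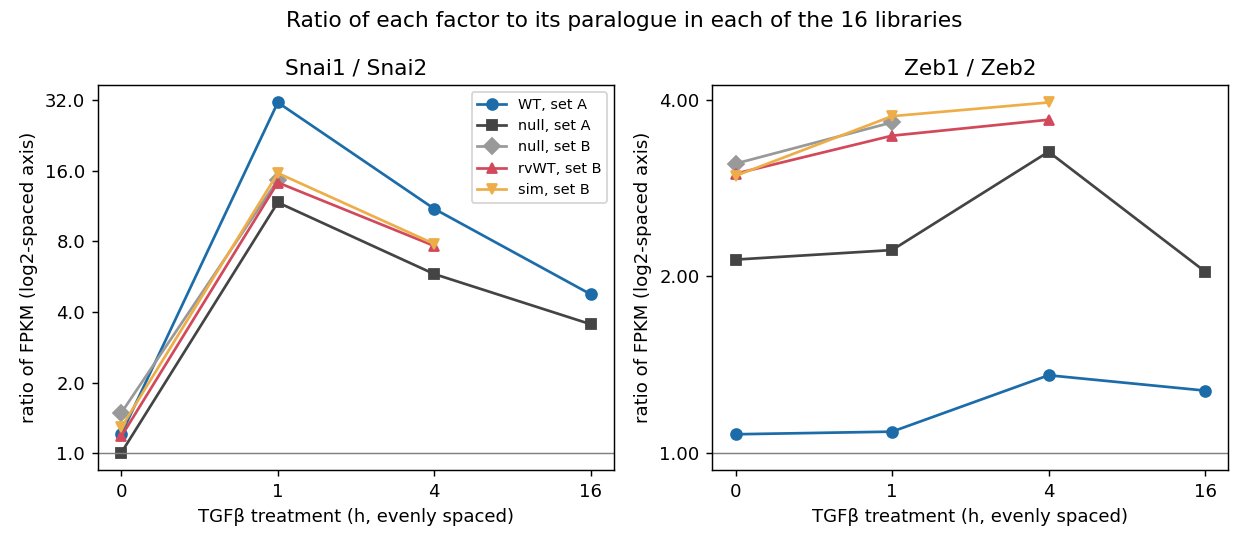
FPKM ratios of Snai1 to Snai2 and of Zeb1 to Zeb2 (vertical axes) against hours of TGFβ, 1 point per library. The first ratio jumps to 11.7 to 31.2 at 1 h in every series, and the second is lowest in the WT libraries at 1.08 to 1.36.

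The EMT factor list, which includes both genes, split with TGFβ. At 1 h 7 of 19 rose and 2 fell, beside 3.95% and 2.01% of all genes. Those that rose with Snai1 included the forkhead factors Foxq1 (log2 difference 1.37) and Foxc2 (1.00), the homeobox factor Prrx2 (0.50), Sox4 (0.48) and Ets1 (0.27). Snai2 and Twist1 (-0.26) fell. At 4 h 8 rose and 5 fell, beside 11.9% and 27.1% of all genes, with Hmga2, a chromatin protein that acts upstream of Snai1, up by 0.97 and Prrx1 down by 0.59. Scaling moved these counts at 4 h, to 9 and 4 with median-ratio and 9 and 3 with quantile scaling. At 16 h 6 rose and 3 fell, beside 6.84% and 12.5% of all genes, and Prrx1 (-0.78), Twist1 (-0.43) and Prrx2 (-0.40) were those that fell. Prrx2 did not pass with median-ratio scaling (-0.33, limma adjusted p = 0.0675). The other 10 list genes at 1 h did not pass, among them Zeb1, Zeb2, Twist2 (0.18), Tcf3 (-0.33), Sox9 (0.18) and Prrx1 (-0.35).

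**Figure D4:**
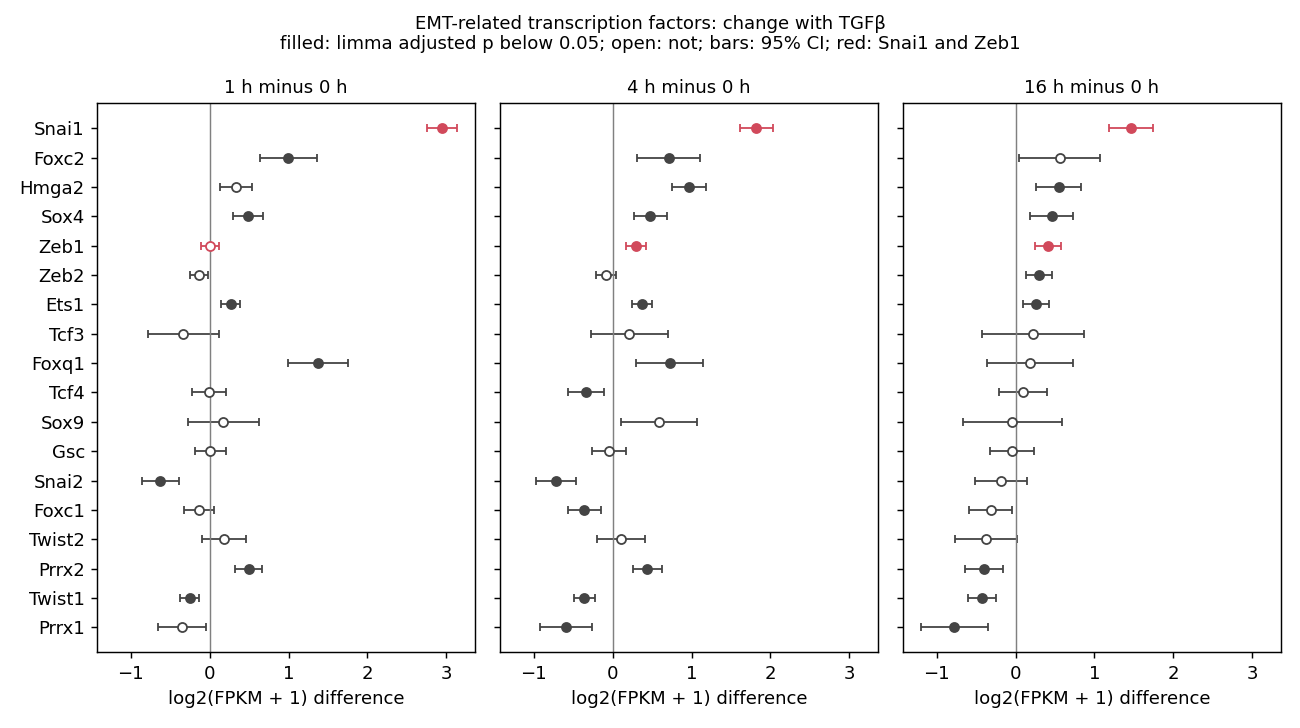
Log2 differences from 0 h with 95% intervals for EMT factors of the list at 1, 4 and 16 h, ordered by the 16 h value, from limma over 16 libraries. Snai1 lies far to the right of the other factors at each time, and Zeb1 moves right of 0 only at 4 and 16 h.

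Between lines, 5 of 18 factors tested in WT minus null were higher and 9 lower in WT, beside 37.4% and 30.1% of all genes. The list's median difference was -0.24 against 0.07 for all genes. Prrx1 (-2.19), Twist2 (-1.89), Tcf4 (-1.75), Snai2 (-0.69) and Prrx2 (-0.66) were among those lower in WT with Zeb1, and Gsc was listed at 0 in all 4 WT libraries. Foxq1 (1.41), Tcf3 (0.79), Sox9 (0.60), Sox4 (0.57) and Ets1 (0.39) were higher in WT.

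In rvWT minus null 13 of 19 EMT factors were higher and 0 lower, beside 16% and 22.6% of all genes, and at an unadjusted p under 0.05 limma gave 16 higher and 0 lower. The counts in sim minus null were 13 and 0, beside 13.9% and 20.8% of all genes, and 15 and 0 at an unadjusted p under 0.05. The median difference was 0.43 and 0.39, against -0.03 and -0.02 for all genes. Sox9 was higher by 1.71 and 1.27 in rvWT and sim, Foxc2 by 1.40 and 0.81, Prrx1 by 1.34 and 1.48, and Snai2 by 0.96 and 0.75. Twist1 was at 0.25 and 0.22 and did not pass (limma adjusted p = 0.0594 and 0.0856). At 0 and 1 h null of set B held Sox9 at 0.51 and 0.89 FPKM and Foxc2 at 0.33 and 0.93 FPKM. Null of set A held 2.19 and 2.51 FPKM of Sox9 and 0.50 and 1.67 FPKM of Foxc2. At 0 h Hmga2 was 44.4 FPKM in rvWT, 30.2 in null of set B and 49.0 in null of set A. In the same order Zeb2 was 5.02, 3.89 and 5.93 FPKM, and Prrx1 45.6, 18.5 and 21.9 FPKM. With median-ratio and quantile scaling 16 factors were higher in rvWT minus null, Twist1 among them (limma adjusted p = 0.0450 and 0.0346), and with quantile scaling 14 were higher in sim minus null, again with Twist1 (limma adjusted p = 0.0496). Fibroblast markers moved the same way: 1 of 11 was higher and 10 lower in WT, 9 were higher and 0 lower in rvWT (9 and 0 at an unadjusted p under 0.05 by limma), and 10 were higher and 1 lower in sim. Their part in the difference in EMT factors was not tested, and Prrx1 is on both lists. Between rvWT and sim 0 of 19 factors passed by limma, and 5 were higher and 1 lower at an unadjusted p under 0.05.

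**Figure D5:**
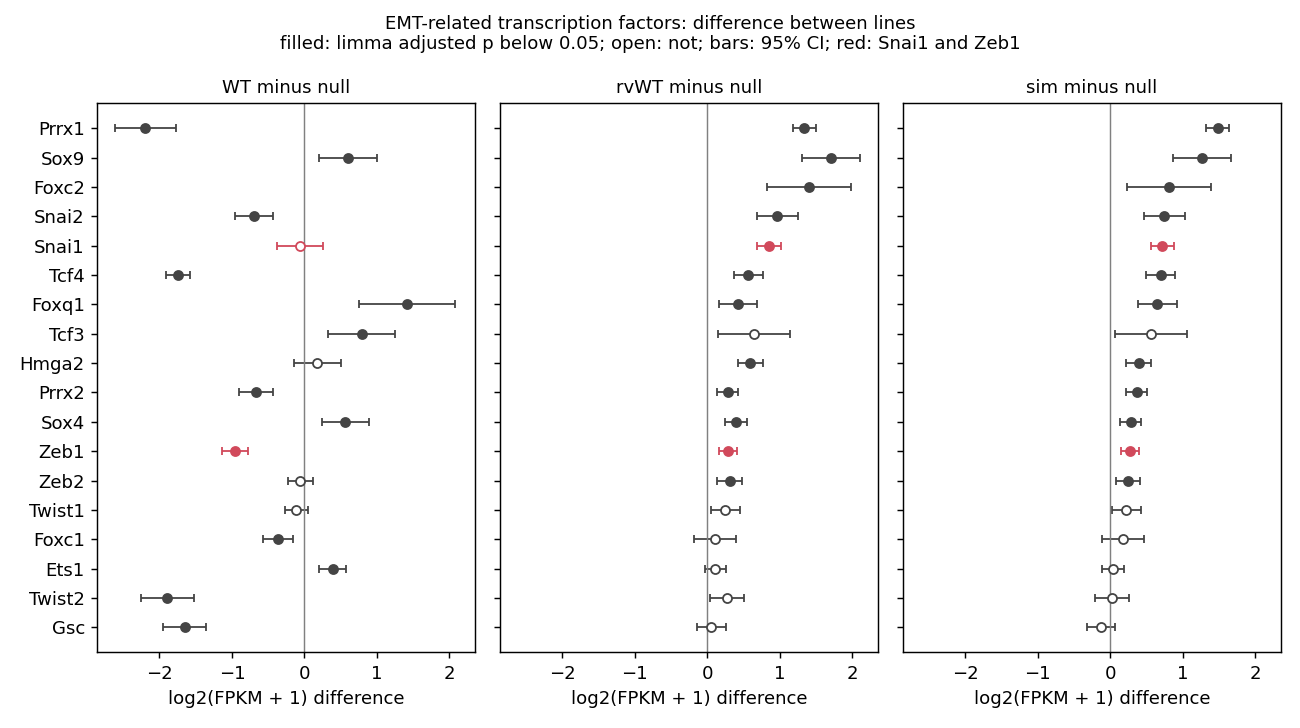
Log2 differences with 95% intervals for EMT factors of the list in WT minus null (set A) and in rvWT and sim minus null (set B), ordered by sim minus null. Zeb1 lies at -0.96 in WT minus null and near 0.3 in the other 2 panels, while Snai1 lies near 0 in the first and at 0.85 and 0.72 in the others.

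The shares of all genes given above for each comparison are also the background of the lists that follow. Epithelial genes described as SNAIL or ZEB targets moved in both directions with TGFβ. Of 13 tested, 2 were higher and 1 lower at 1 h, with the junction protein Jup (0.47) and the polarity protein Llgl2 (0.37) up and the junction receptor Cxadr (-0.22) down. At 4 h 5 were higher and 4 lower, and Krt19, a keratin, fell by 0.65. At 16 h 4 were higher and 3 lower, and Krt19 fell by 1.08 while the desmosomal protein Pkp2 rose by 0.77. Between lines 11 of 13 were lower in rvWT and 12 of 13 in sim, with 1 higher in each. Llgl2 (-2.17 and -1.74), the laminin Lama5 (-2.06 and -1.80) and the desmosomal protein Dsp (-1.86 and -1.59) were lower in both. In WT minus null 6 of 14 were higher and 8 lower, and the median log2 difference was -0.45 against 0.07 for all genes. Krt19 (6.56), Cxadr (2.67) and the junction protein F11r (2.58) were among the 6 higher in WT.

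Of 20 mesenchymal genes tested, 3 rose at 1 h and 0 fell (4 and 0 at an unadjusted p under 0.05 by limma), 12 rose and 2 fell at 4 h, and 14 rose and 2 fell at 16 h, while the share of all genes that passed was also larger at 4 and 16 h than at 1 h. At 1 h the fibronectin receptor subunit Itga5 rose by 0.49 and the matrix protease Mmp2 by 0.35. At 16 h Tagln, an actin-binding protein, was up by 1.34 and the matrix protease Mmp14 by 0.79. Between lines 12 were higher and 4 lower in rvWT and in sim, and 4 were higher and 11 lower in WT. Col1a2, a collagen, differed by 1.84 in rvWT and Cdh11, a mesenchymal cadherin, by 1.55, whereas Mmp3, a matrix protease, was lower by a log2 difference of -4.12. In WT S100a4 (-5.06) and Col3a1 (-4.98) were lower and Mmp2 (3.34) higher, and the list shares members with the fibroblast markers.

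Of 29 genes for corepressors and chromatin partners, 2 were higher and 0 lower at 1 h by limma (5 and 3 at an unadjusted p under 0.05). The 2 were the LIM proteins Ajuba (0.37) and Wtip (0.29), which bridge SNAIL to chromatin enzymes. The count at 1 h is near the 5.96% of all genes that passed. At 4 h 6 were higher and 12 lower, with Loxl2, a lysyl oxidase that stabilises SNAIL, up by 0.57 and the acetyltransferase Kat2b down by 0.97. At 16 h 5 were higher and 2 lower, and Loxl2 was up by 0.97. In WT minus null 6 of 29 were higher and 12 lower, where 67.5% of all genes passed in either direction (37.4% higher and 30.1% lower). Loxl3 (-1.92), Loxl2 (-0.88) and Ajuba (-0.64) were among the 12 lower in WT.

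Of 26 genes for regulators of SNAIL protein stability and location, 1 was higher at 1 h and 1 lower, the ubiquitin ligase gene Mdm2 (0.16) and the scaffold gene Axin2 (-0.46). At 4 h 4 were higher and 6 lower, and the phosphatase genes Ctdsp2 and Ctdspl fell by 0.63 and 0.43. In WT minus null 11 were higher and 8 lower, with Mdm2 at 0.99, the kinase gene Pak1, whose product keeps SNAIL in the nucleus, at -1.27, and Ctdsp2 at -1.44. In rvWT 4 were higher and 7 lower, with Axin2 at -1.93 and Pak1 at 0.96. These counts lay near the shares of all genes that were higher and lower. The shares were 3.95% and 2.01% at 1 h and 11.9% and 27.1% at 4 h. They were 37.4% and 30.1% in WT minus null and 16% and 22.6% in rvWT minus null.

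SMAD inputs and early TGFβ targets rose at 1 h or did not pass. Of 26 tested, 15 were higher and 0 lower at 1 h (19 and 0 at an unadjusted p under 0.05 by limma), with a median of 0.88 against -0.03 for all genes. Junb, an AP-1 subunit, rose by 2.52, the inhibitory SMAD gene Smad7 by 2.04 and the feedback inhibitor gene Pmepa1 by 1.58. At 4 h 14 were higher and 4 lower, and Pmepa1 (2.31) and Ldlrad4 (1.59), another feedback inhibitor, had risen by more than Smad7 (1.15).

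The genes most like Snai1 were sought by the Pearson correlation of log2(FPKM + 1) over the 16 libraries among 10839 genes. The libraries share lines, sets and times, so the values describe and carry no test. Over all libraries the 5 nearest were Foxf2 (0.959), Map3k14 (0.950), Erf (0.942), Junb (0.931) and Gadd45g (0.908). After each series mean was subtracted, which leaves the pattern over time, they were Smad7 (0.995), Irf2bpl (0.972), Csrnp1 (0.970), Spsb1 (0.969) and Zfpm1 (0.966). Smad7 stood at 8.21, 40.1, 19.9 and 15.3 FPKM in WT and at 5.89, 24.4, 12.5 and 12.3 in null of set A at 0, 1, 4 and 16 h. In null of set B it was 5.74 and 23.3 FPKM at 0 and 1 h, in rvWT 4.14, 22.7 and 11.96 and in sim 4.05, 20.8 and 10.8 at 0, 1 and 4 h. Within every series Smad7 was thus highest at 1 h, as Snai1 was, though null of set B has no later library. Between lines Smad7 was highest in WT, where Snai1 was not.

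For Zeb1 the 5 nearest genes over all libraries were Birc3 (0.972), Tpm1 (0.971), Rgs20 (0.970), Rftn2 (0.965) and Fhl2 (0.964). After the series means were subtracted they were Fblim1 (0.953), Tgfb1i1 (0.951), Ncam1 (0.950), Sp110 (0.945) and Papss2 (0.942). The correlation of Snai1 with Zeb1 was 0.275 over all libraries and 0.067 after the series means were subtracted.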

How the data were processed

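The authors deposited FPKM values for 12100 genes in 16 libraries. The submitters' processing notes list build mm9, Cufflinks 2.2.1, SAMtools, STAR 2.3.0e and CASAVA 1.8.2, with no roles; the annotation is not given in these sources. Whole reads could not be recovered from the low values (69 of 331 genes had a whole-number ratio within 0.006 log2), so no counting interval is given. Genes averaging 1 FPKM or more across a fit entered it as log2(FPKM + 1), a scale that understates changes of low genes. The test was limma-trend in R 4.3.3 (packages limma 3.58.1 and statmod 1.5.0), Benjamini-Hochberg adjusted over every gene in the fit, with a threshold of 0.05. The procedure was tested on simulated data for WT minus null and 1 h minus 0 h only. Set B line comparisons, responses and changes as small as those of Zeb1 with TGFβ were not simulated. Lines were compared within a set with time as a term, and times over 16 libraries with series (1 line in 1 set) as a term. Residual degrees of freedom were 3 for lines, 8 for times and 6 for responses. Named genes were Snai1, Zeb1, Rnf111, the listed EMT factors, up to 3 genes of smallest p per other list and comparison, the 5 most alike, and rank neighbours. A few genes that this rule names are counted in their lists but not reported here by name. The members and lists were chosen with earlier results of these data known. Both genes were matched to RefSeq by accession, and the promoter is in another build than the files. Of 16 microRNA genes sought, 0 were in the table. The processing was varied by pseudocount (0.1, 5), filter (none, mean of 5 FPKM), scaling (quantile, median-ratio), variance model (no trend, robust), model terms, single sets and omission of each library.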

Additional observations from a re-analysis of the deposited data

Results flagged for a closer look

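In 2 EMT factors every treated library of a series moved one way and every treated library of another series the other way, a pattern not tested as such. The mean response of Twist2, a helix-loop-helix factor, was -0.42 log2 units in null of set A, 0.37 in rvWT and 0.28 in sim. That of Gsc, a homeobox factor, was -0.22 in null of set A and 0.10 in sim. Gsc was listed at 0 in the WT libraries. Null of set B, with 1 treated library, could not be flagged, and there Twist2 changed by -0.017 and Gsc by -0.048 at 1 h. In null of set A the Twist2 change was -0.13 at 1 h and -0.59 at 16 h. The opposite series lie in different sets and only set A has 16 h, so set, times and line cannot be told apart. Neither gene passed in the limma comparisons of responses.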

How the results depend on the processing

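Read depth is unknown, each line has 1 library per time and set, and line comparisons had 3 residual degrees of freedom, so precision rests on the scatter between times. Pseudocounts, filters, scaling and variance models left every Snai1 and Zeb1 call and direction as reported. Without time as a term, 4 calls were lost: Snai1 was 0.996 in rvWT and 0.86 in sim minus null, and Zeb1 0.36 and 0.35. In set A alone, calls were lost for Snai1 at 4 h (1.75) and 4 h minus 1 h (-1.21) and for Zeb1 at 4 h (0.37), 16 h (0.43) and 4 h minus 1 h (0.39), and Zeb1 at 1 h was -0.019. Set B alone gave no 16 h value, and there the Snai1 response with wild-type Arkadia minus null was -0.12.

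Leaving out each library in turn, Snai1 in WT minus null ran from -0.17 to 0.054, with a positive sign without either line's 0 h or 16 h library. Zeb1 ran from 0.27 to 0.31 in rvWT minus null and from 0.26 to 0.29 in sim minus null, with the lost calls given above. Differences that did not pass changed sign for Zeb1 in rvWT minus sim (-0.011 to 0.027), at 1 h (-0.012 to 0.035), and in the responses of wild-type Arkadia (-0.082 to 0.026) and sim (-0.18 to 0.0090) minus null. The causes were not tested. No paired analysis was possible because the labels give no replicate numbers and the groups compared hold 1 library each (null at 0 and 1 h hold 1 in each set); time and series served as terms in their place.

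Counts of genes passed moved by over 1.5 times as follows. Without time as a term they were 2200 for rvWT minus null (4230 as reported), 1777 for sim minus null (3807) and 7 for rvWT minus sim (54). The last was 93 with robust variances and 17 in 1 fit of all libraries. In set A alone they were 12 at 1 h (658), 16 at 4 h (4307), 245 at 16 h (2139), 9 for 4 h minus 1 h (2453), 6 for 16 h minus 4 h (207) and 9 for the response with wild-type Arkadia (1). Set B alone gave 17 for the latter and 12 for the sim response (2), which was 5 and 0 at pseudocounts of 0.1 and 5 and 1 with a minimum of 5 FPKM. With 1 library left out they ran from 1946 to 4249 in rvWT minus null, 1581 to 3854 in sim minus null, 1 to 10 in rvWT minus sim, 400 to 815 at 1 h, 2658 to 4779 at 4 h, 640 to 3026 at 16 h, 1105 to 3166 for 4 h minus 1 h, 119 to 657 for 16 h minus 4 h, and 1 to 11 and 0 to 5 for the responses.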
